A study of Mus musculus with 10 samples.

Results

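Potassium channel genes were followed as a family, namely every gene with an official mouse symbol beginning with Kcn that a probe of the CodeLink Mouse Whole Genome array names alone. The rule took 115 probes for 80 genes, out of 18069 genes with a probe of their own, and where a gene had several, the one brightest on average (mean log2 over the 10 arrays) stands for it. By class, 31 of the genes encode voltage-gated channel subunits, 14 inward rectifiers, 11 two-pore channels, 7 calcium-activated channels and their relatives, and 14 auxiliary subunits. The remaining genes are the non-coding RNAs Kcnq1ot1 and Kcnmb4os1 and the channel regulator Kcnrg. Tests covered the 70 genes whose probe exceeded background on each array of some group. The other 10, Kcna4, Kcne1, Kcnj1, Kcnj4, Kcnj15, Kcnk5, Kcnmb4os1, Kcnrg, Kcns2 and Kcnu1, did not reach that mark in any group.

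The Dox(+) EBs were embryoid bodies from Ainv18 mouse ES cells, harvested on day 13 after 1 µg/ml doxycycline (Dox) from day 4, and the Dox(-) EBs were grown in the same way without Dox. Both received activin A, BMP4 and bFGF, and both carry the inducible cassette, which the source names give as Pdx1 and Ngn3 joined by an IRES, whereas another label of the same samples names activated Notch4. The other groups were βTC6 cells (a transformed mouse insulinoma line), whole islets, and whole E15.5 mouse pancreas, with 2 arrays in each of the 5 groups. The labels do not give the age of the islets, and the study's own sources differ on it, with adult in its text and an embryonic stage in a table heading. The labels call the arrays biological replicates without naming separate cultures or dissections, so p-values measure the spread between these arrays only, which may be technical. Levels are scaled intensities, in which 1 is the median probe of an array, and values under 0.27 were set to 0.27 before log2. A probe was called higher or lower at an adjusted p under 0.05 in limma, with adjustment over all 28109 probes tested.

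Potassium channels set the resting potential of excitable cells and end their action potentials. In beta cells the ATP-sensitive (KATP) channel, made of the pore Kcnj11 and the sulfonylurea receptor Abcc8, closes as glucose is metabolised, the membrane depolarises, and calcium entry releases insulin. Voltage-gated and calcium-activated channels then repolarise the cell, and two-pore channels carry the background leak. Auxiliary subunits such as the KChIPs (Kcnip genes) and BK beta subunits (Kcnmb genes) tune the gating and surface delivery of the pores.

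Between 66.0% and 74.3% of the 34967 discovery probes were above background on an array, with 73.7% and 74.3% on the Dox(+) arrays and 67.2% and 68.1% on the Dox(-) arrays. Replicate arrays correlated at 0.989 to 0.996. The EB, pancreas, and βTC6 and islet arrays came from separate ranges of slide numbers, so slide range and tissue cannot be told apart in comparisons between them. The probes for Pdx1 and Neurog3 (Ngn3) gave no check of the induction. Pdx1 stood at 0.27 on both Dox(+) arrays and at 0.27 and 0.333 on Dox(-) arrays, and Neurog3 at 0.447 and 0.557 against 0.458 and 0.520, and no source used here says whether these probes lie in the introduced sequence. All 11 islet endocrine markers with a probe were higher in Dox(+) than in Dox(-) EBs, with summed levels of 498 to 567 against 7.79 to 7.92. All 8 neuron markers were also higher, with sums of 140 to 175 in Dox(+) EBs and 3.13 to 3.19 in Dox(-) EBs, where Dcx, Stmn2, Stmn3, Elavl4, Nefl and Nefm were at background. The insulinoma line βTC6 summed to 228 and 241 on the same list, so these markers were not confined to neurons here. All 5 tested heart and muscle markers were lower in Dox(+) than in Dox(-) EBs (8.89 to 9.63 against 133 to 191). The islets held acinar RNA, with summed acinar markers of 755 to 1191 against 655 to 698 in E15.5 pancreas. The part of these cell types in the results below was not tested, and in bulk RNA fewer cells of a type and less RNA per cell cannot be told apart.

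On both arrays of the group, 61 of the 80 genes were above background in Dox(+) EBs, 49 in Dox(-) EBs, 53 in βTC6 cells, 58 in islets and 57 in E15.5 pancreas. Among the tested genes the highest group was Dox(+) EBs for 16, Dox(-) EBs for 13, βTC6 cells for 16, islets for 20 and E15.5 pancreas for 5. The group means of 28 genes spanned more than 4-fold, and those of 21 genes less than 2-fold. Only Kcna2, a Shaker-type channel of axons, and Kcnj14, an inward rectifier, were called in none of the 6 comparisons, while Kcna1, Kcna5, Kcnf1, Kcnh3, Kcnh8, Kcnmb2, Kcnmb4, Kcnq1ot1 and Kcns3 were called in all of them.

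In Dox(+) against Dox(-) EBs, 27 of the 70 tested genes rose and 15 fell, so that 60.0% were called against 43.2% of all tested probes (20.7% higher and 22.5% lower). The median log2 difference of the family was 0.01, beside -0.03 over all probes. Fitted rises reached 3.81 on the log2 scale and 13 of the 27 genes that rose were at background on both Dox(-) arrays, whereas fitted falls reached 2.27, with that of Kcnj16 a lower bound. Rises were found in 12 of 29 voltage-gated genes, 3 of 11 inward rectifiers, 3 of 10 two-pore genes, 2 of 6 calcium-activated and related genes and 7 of 13 auxiliary genes. Falls were found in 5 voltage-gated genes, 2 inward rectifiers, 4 two-pore genes, 2 calcium-activated genes, 1 auxiliary gene and Kcnq1ot1.

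**Figure D1:**
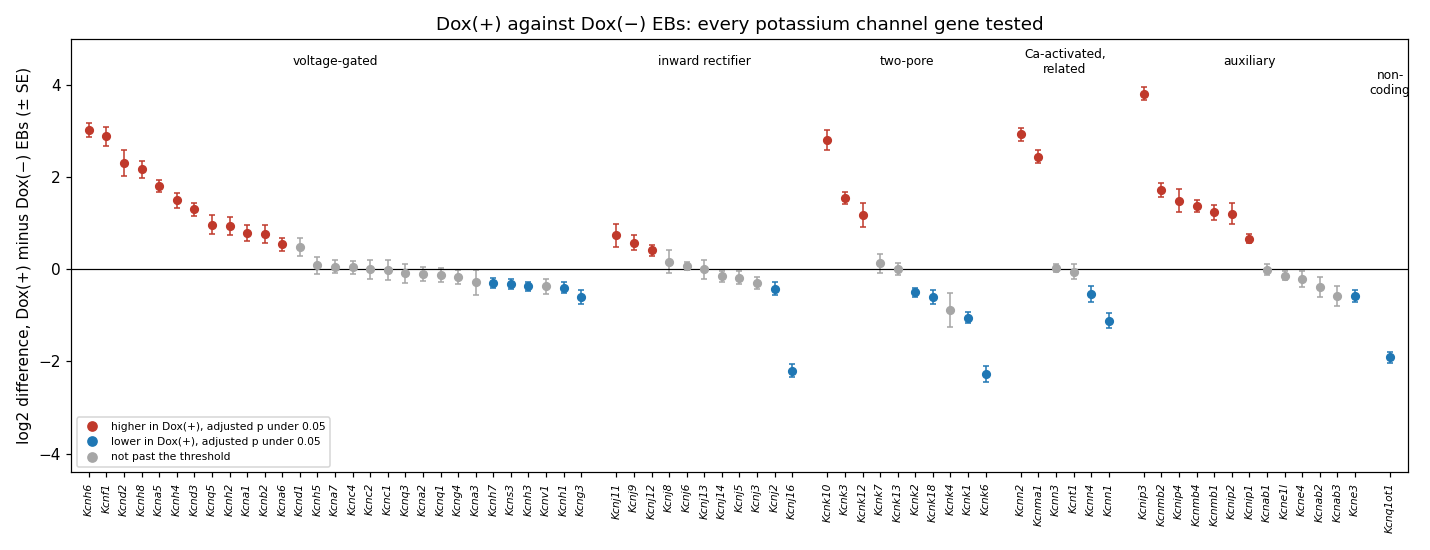
Log2 difference between Dox(+) and Dox(-) EBs (vertical axis, mean of 2 arrays minus mean of 2 arrays, bars ± SE from limma) for each of the 70 tested genes, by class. The 27 red genes rose, with Kcnip3 at 3.81, and the 15 blue genes fell, with Kcnk6 at -2.27.

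Kcnj11, the pore of the beta cell KATP channel, read 0.493 and 0.442 on Dox(+) arrays, 0.451 and 0.677 on βTC6 arrays, 0.812 and 1.20 on islet arrays and 0.360 and 0.477 on E15.5 arrays, and 0.292 and 0.27 (both at background) on Dox(-) arrays. The Dox(+) arrays lay above the Dox(-) arrays, at least 1.66-fold (log2 difference 0.73 ± 0.25 SE, limma adjusted p = 0.0346), below both islet arrays and overlapping the βTC6 and pancreas arrays. The call did not survive the loss of any 1 of the 4 EB arrays (adjusted p = 0.0867 and 0.134 without Dox(-) replicate 1 and 2, 0.166 and 0.0911 without Dox(+) replicate 1 and 2). Against islets Kcnj11 was 2.12-fold lower in Dox(+) EBs (limma adjusted p = 0.00267). Abcc8 went the other way, at 11.6 and 11.0 on Dox(+) arrays and 12.7 and 14.0 on Dox(-) arrays (log2 difference -0.24 ± 0.09, adjusted p = 0.0483), against 11.4 and 11.7 on βTC6 arrays, 36.3 and 36.0 on islet arrays and 13.2 and 12.2 on E15.5 arrays. Both EB groups thus lay well under the islets for the receptor, and the Dox(-) EBs, with summed endocrine markers of 7.79 to 7.92, still carried it at about the level of the Dox(+) EBs. The Abcc8 call with Dox lay near the threshold, and it was not checked under the alternatives used for the Kcn genes, such as leaving out 1 array. Slc2a2, the glucose transporter of mouse beta cells, read 1.73 and 1.70 on Dox(+) arrays against 72.6 and 73.5 on islet arrays, and was not called with Dox.

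Kcnj8 and Abcc9, the pore and receptor of the vessel wall form of the KATP channel, were highest in E15.5 pancreas. Kcnj8 read 1.02 and 1.15 on Dox(+) arrays, 0.928 and 1.00 on Dox(-) arrays, background in βTC6 cells, 0.506 and background on islet arrays, and 5.99 and 6.48 on E15.5 arrays. The islets were 16.9-fold below the pancreas (limma adjusted p = 1.21e-07). Abcc9 was 0.544 and 0.547 on E15.5 arrays and near the floor in each of the other groups. Mesenchyme and vessel wall markers summed to 42.6 to 42.7 in islets and 360 to 368 in the pancreas, and their part in the Kcnj8 difference was not tested.

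**Figure D2:**
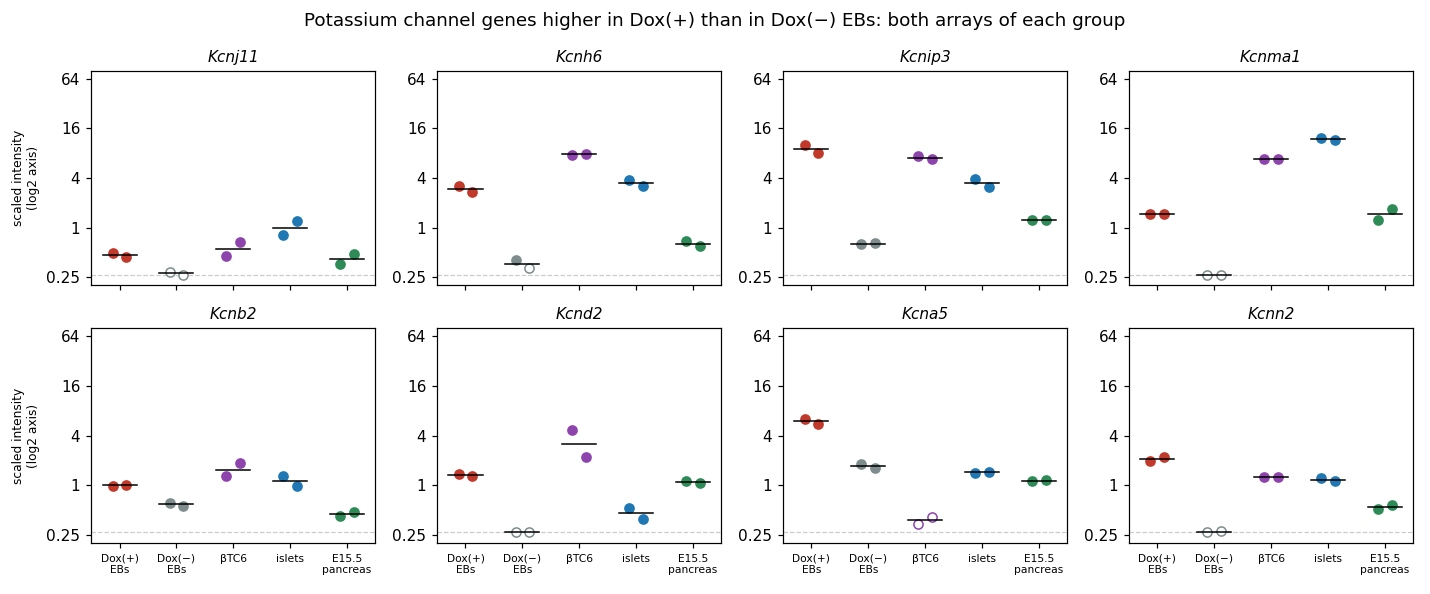
Scaled intensity (vertical axis, log2 spaced, dashed line at the floor of 0.27) of 8 genes that rose with Dox, with both arrays of each group as points, open where at background, and the group mean of log2 levels as a bar. Kcnh6 and Kcnip3 in Dox(+) EBs reached or passed the islets, while Kcnma1 and Kcnj11 stayed below them.

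Among the voltage-gated genes, Kcnh6, a member of the ether-a-go-go-related family with a known role in insulin secretion, was among those that rose most. It read 3.24 and 2.67 on Dox(+) arrays against 0.411 and 0.322 (the second at background) on Dox(-) arrays, an 8.10-fold difference (log2 difference 3.02 ± 0.16, limma adjusted p = 1.21e-07). The other groups read 7.70 and 7.82 on βTC6 arrays, 3.74 and 3.18 on islet arrays and 0.681 and 0.602 on E15.5 arrays, so that the Dox(+) arrays overlapped the islets and were not called against them (log2 difference -0.23 ± 0.16, adjusted p = 0.226). Its relative Kcnh2, the HERG channel, read 1.41 and 1.15 on Dox(+) arrays and 0.543 and 0.806 on Dox(-) arrays, against 1.83 and 1.85 on islet arrays. Kcnh2 was thus between Dox(-) EBs and islets, 1.92-fold above Dox(-) EBs (adjusted p = 0.00306). Kcnh8, an ELK channel, was at 2.81 and 2.42 against 0.697 and 0.479 (4.51-fold, adjusted p = 4.54e-06) and was at background in βTC6 cells.

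Kcnf1, an electrically silent subunit that modifies Kv2 channels, was measured at 1.99 and 2.00 on Dox(+) arrays and at background in Dox(-) EBs and E15.5 pancreas (at least 7.28-fold over Dox(-) EBs, limma adjusted p = 1.43e-06). Kcnb2, a Kv2 pore, rose 1.70-fold (0.986 and 1.02 against 0.618 and 0.564, adjusted p = 0.00968), although not without Dox(-) replicate 2 or Dox(+) replicate 2 (adjusted p = 0.0585 and 0.0591). Amigo1, a partner of Kv2 channels, was at 12.5 on the 1 Dox(+) array that could be read, against 6.17 and 6.41 on Dox(-) arrays. Other silent subunits did not follow, since Kcng3 and Kcns3 fell.

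The A-type channel gene Kcnd2 read 1.39 and 1.30 on Dox(+) arrays and background in Dox(-) EBs, at least 4.90-fold apart (limma adjusted p = 8.45e-05). It was 4.64 and 2.22 on βTC6 arrays, where the 2 arrays were furthest apart, 0.538 and 0.390 on islet arrays and 1.13 and 1.06 on E15.5 arrays. Kcnd3 rose at least 2.42-fold, and on its second probe was at or near the floor in both EB groups. Kcna5, a Kv1 channel best known from heart atria and vessel wall, was highest in Dox(+) EBs of all 5 groups, at 6.34 and 5.63 against 1.80 and 1.62 on Dox(-) arrays (3.49-fold, adjusted p = 1.74e-06), 1.41 and 1.47 on islet arrays and background in βTC6 cells. All 5 tested heart and muscle markers fell with Dox, and of 7 mesenchyme and vessel wall markers 5 fell and 2 rose. The part of these cells in the Kcna5 rise was not tested.

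Smaller rises past the threshold were seen for Kcna1 (1.73-fold), Kcna6 (at least 1.45-fold, lost without Dox(-) or Dox(+) replicate 2, adjusted p = 0.0670 and 0.0550), Kcnh4 (at least 2.78-fold) and the M-current gene Kcnq5 (1.96-fold). The 5 voltage-gated genes that fell did so by 1.23-fold to 1.51-fold. They were Kcng3 (5.70 and 5.20 against 8.06 and 8.41, adjusted p = 0.00859), Kcnh1, Kcnh3, Kcnh7 and Kcns3, and each of the 5 calls was lost without at least 1 EB array (adjusted p = 0.0538 to 0.254). Kcnh1 also depended on the probe. The probe with the highest mean fell (log2 difference -0.40), whereas the other 2 probes rose, by 1.37 and 0.79.

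Kcnip3, encoding the calcium sensor KChIP3 (also DREAM or calsenilin) that binds Kv4 channels, had the largest fitted rise of the family, although those of genes at background in Dox(-) EBs are lower bounds and cannot be ranked against it. Its levels were 10.0 and 8.02 on Dox(+) arrays, 7.33 and 6.80 on βTC6 arrays, 3.90 and 3.14 on islet arrays and 1.23 and 1.24 on E15.5 arrays, against 0.635 and 0.647 on Dox(-) arrays. The 14.0-fold rise (log2 difference 3.81 ± 0.14, limma adjusted p = 9.33e-09) put the Dox(+) EBs above islets (2.57-fold, adjusted p = 8.00e-06), and the difference from βTC6 cells (log2 0.35) missed the threshold (adjusted p = 0.0511). The other KChIP genes rose too. Kcnip4 was 0.601 and 0.959 against background on both Dox(-) arrays, Kcnip2 was 0.745 and 0.521 against background, and Kcnip1 was 12.1 and 10.9 against 7.16 and 7.30 (1.59-fold, adjusted p = 3.55e-04). In contrast to Kcnip3, Kcnip1 stayed below the islets, at 25.9 and 23.1, and so did Kcnip4, at 1.91 and 1.85.

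As Kcnip3 and Kcnh6 had fitted rises among the largest of the auxiliary and pore-forming genes, the 250 bases before their first annotated start (RefSeq, GRCm38.p6) are shown, with the letters searched for in capitals. These were CAGATG, an E-box form bound by Ngn3 and NeuroD1, and TAAT, the core bound by homeodomain factors such as Pdx1, each on both strands (reverse complements CATCTG and ATTA), and the motifs share no overlapping match in the sequences shown.
Kcnip3, chr2:127522095-127522344, minus strand: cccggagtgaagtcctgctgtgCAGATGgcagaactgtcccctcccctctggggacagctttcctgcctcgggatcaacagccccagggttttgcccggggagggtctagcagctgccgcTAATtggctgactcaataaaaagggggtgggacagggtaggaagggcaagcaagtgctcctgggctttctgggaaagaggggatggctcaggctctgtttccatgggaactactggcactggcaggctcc
Kcnh6, chr11:106007898-106008147, plus strand: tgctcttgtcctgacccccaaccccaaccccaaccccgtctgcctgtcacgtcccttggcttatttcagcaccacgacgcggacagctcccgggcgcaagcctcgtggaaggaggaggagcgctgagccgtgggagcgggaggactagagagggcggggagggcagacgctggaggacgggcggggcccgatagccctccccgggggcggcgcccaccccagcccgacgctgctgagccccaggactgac
Kcnip3 has 1 match to each motif at this start, the first of 3 in the table, and Kcnh6 has none. Of the 80 genes, 62 have an entry in the table. CAGATG was found before any start of 3 of 22 genes that rose (Kcnip1, Kcnip3 and Kcnip4, all KChIP genes), of 3 of 13 that fell, and of 16.3% of all genes in the table. TAAT was found for 11 of 22 that rose, 7 of 13 that fell and 58.5% of all genes. Neither share among the rising genes was above that of the table as a whole.

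The calcium-activated channels moved in both directions with Dox. Kcnma1, the BK channel pore, read 1.46 and 1.47 on Dox(+) arrays and background in Dox(-) EBs (at least 5.34-fold, limma adjusted p = 2.73e-07), and its other probes rose as well (log2 differences 2.33 and 0.73). It was far from islets, at 12.3 and 11.5 (8.14-fold, adjusted p = 1.76e-08), and was not called against E15.5 pancreas, at 1.24 and 1.69. Its beta subunits followed 2 patterns. Kcnmb2, an inactivating subunit found in chromaffin and islet cells, was 1.06 and 0.920 on Dox(+) arrays, background in Dox(-) EBs and 6.33 and 6.32 on islet arrays. Kcnmb4, the brain-type subunit, was highest in Dox(+) EBs, at 6.52 and 6.14 against 2.35 and 2.54 on Dox(-) arrays and 0.485 and 0.574 on islet arrays, so that Dox(+) EBs and islets differed 12.0-fold (adjusted p = 1.77e-09). Kcnmb1, the smooth muscle subunit, was likewise highest in Dox(+) EBs, at 3.91 and 3.53 against 1.37 and 1.82.

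The small-conductance (SK) genes, opened by calcium through calmodulin, split by member. Kcnn2 rose to 2.00 and 2.19 on Dox(+) arrays, against background in Dox(-) EBs (at least 7.50-fold, limma adjusted p = 4.93e-08). Kcnn1 fell to 5.02 and 4.32, against 9.64 and 10.6 (2.17-fold, adjusted p = 2.79e-04), and remained above islets at 1.07 and 1.14. Kcnn3 was nearly level, at 9.13 and 8.62 against 8.66 and 8.72 (log2 difference 0.03 ± 0.08). Kcnn4, the intermediate-conductance channel of blood cells and epithelia, was 1.24 and 1.30 against 1.72 and 1.98, and its fall (adjusted p = 0.0288) was lost in 3 of 4 fits that left out 1 EB array (adjusted p = 0.0898 to 0.157). Blood markers summed to 1.39 to 1.49 in Dox(+) EBs and 92.8 to 103 in Dox(-) EBs, and their part in this fall was not tested.

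Of the two-pore genes, Kcnk3 (TASK1, an acid-sensitive leak channel) read 17.1 and 16.4 on Dox(+) arrays, 5.31 and 6.27 on Dox(-) arrays, 19.1 and 16.2 on islet arrays and 11.7 and 11.8 on E15.5 arrays. The 2.91-fold rise with Dox (limma adjusted p = 5.11e-06) brought it to within the spread of the islets (log2 difference -0.07 ± 0.13). βTC6 cells stood apart at 0.584 and 0.727, 25.7-fold below Dox(+) EBs and 27.0-fold below islets. Kcnk10 (TREK2, opened by stretch and lipids) read 2.12 and 1.69 against background in Dox(-) EBs. This holds for 1 probe only, since the other stood at 0.27 and 0.313 on Dox(+) arrays and at 1.49 and 1.86 on βTC6 arrays. Kcnk12, a subunit with little current of its own, rose 2.27-fold.

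Falls of over 4-fold were those of Kcnk6 and Kcnj16. Kcnk6 (TWIK2) read 0.745 and 0.764 on Dox(+) arrays and 3.95 and 3.35 on Dox(-) arrays, 4.82-fold apart (limma adjusted p = 1.65e-06), and E15.5 pancreas was higher still, at 4.54 and 4.92. Kcnj16, an inward rectifier of kidney and glia, was above background in Dox(-) EBs alone, at 1.19 and 1.29, at least 4.59-fold over Dox(+) EBs. It was tested only through that group, so its difference is given as a description. The same holds for Kcna6, Kcnd3, Kcnh4 and Kcnj9, tested only through Dox(+) EBs. These genes remain in the counts of calls. Kcnk1 (TWIK1) fell 2.07-fold, Kcnk18 1.52-fold (lost without Dox(-) replicate 2 or Dox(+) replicate 1, adjusted p = 0.0519 and 0.0575), and Kcnk2 (TREK1) 1.41-fold, with levels for Kcnk2 of 10.9 and 9.64 on Dox(+) arrays and 13.7 and 15.3 on Dox(-) arrays. The epithelial subunit Kcne3 fell 1.50-fold and was at background in βTC6 cells and islets. Liver and intestine markers also fell, with sums of 47.7 to 57.4 and 5.83 to 7.66 in Dox(+) EBs against 496 to 517 and 61.3 to 65.4 in Dox(-) EBs. The part of those cells in these falls was not tested.

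Among the other inward rectifiers the changes were small. Kcnj12, a Kir2 channel of muscle, rose 1.33-fold and Kcnj2, its close relative, fell 1.34-fold, each losing the call in 3 of the 4 fits without 1 EB array (adjusted p = 0.0508 to 0.104 and 0.0633 to 0.195). Kcnj9, a G protein-gated (GIRK) subunit, rose to 0.388 and 0.419, against background on both Dox(-) arrays, and also lost the call in 3 such fits (adjusted p = 0.0558 to 0.0889). The GIRK genes Kcnj3, Kcnj5 and Kcnj6 were not called. Kcnj6 stood at 22.2 and 22.4 on Dox(+) arrays and 21.7 and 21.0 on Dox(-) arrays, whereas another of its probes rose (log2 difference 0.44, limma adjusted p = 0.00441).

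Against islets, 22 genes were higher and 28 lower in Dox(+) EBs, so that 71.4% were called against 68.0% of all probes (36.4% higher and 31.6% lower). Of the 27 genes that rose with Dox, 14 were above the islets, 8 below them (Kcnh2, Kcnip1, Kcnip4, Kcnj11, Kcnj12, Kcnk12, Kcnma1 and Kcnmb2) and 5 not called (Kcnb2, Kcnh6, Kcnip2, Kcnj9 and Kcnk3). The comparisons share the Dox(+) arrays, and the matching split over all probes was not counted. Of the 8 genes below islets, the call was lost without any 1 of the 4 arrays for Kcnk12 (adjusted p = 0.0532 to 0.0699), in 3 such fits for Kcnh2 (0.109 to 0.217) and in 2 for Kcnj12 (0.134 and 0.152). The genes furthest below the islets were Kcnq1ot1 (16.3-fold), Kcnma1 (8.14-fold), Kcns3 (7.81-fold), Kcnmb2 (6.40-fold), Kcnk2 (4.11-fold), Kcnq1 (at least 3.39-fold), the sodium-activated channel Kcnt1 (3.29-fold) and Kcnj13 (at least 2.95-fold). Those furthest above were Kcnmb4 (12.0-fold), Kcne3 (at least 11.9-fold), Kcnk10 (5.60-fold), Kcnn1 (4.22-fold), Kcna5 (4.15-fold), Kcnq5 (3.20-fold), Kcnd2 (2.93-fold) and Kcnj8 (2.92-fold). Neuron markers lay on the same side as the higher genes, with 6 of 8 higher in Dox(+) EBs and sums of 140 to 175 against 30.2 in islets. So did mesenchyme and vessel wall markers, with 7 of 7 higher (208 to 215 against 42.6 to 42.7). Of the endocrine markers 9 of 11 were lower in Dox(+) EBs (498 to 567 against 1404 to 1894), as were 4 of 4 acinar markers (14.7 to 19.2 against 755 to 1191). The part of these cell types was not tested.

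Against βTC6 cells, 19 genes were higher and 25 lower in Dox(+) EBs (62.9% called, beside 62.9% of all probes, of which 25.5% higher and 37.4% lower). This split depended on the scaling. Quantile normalization gave 22 higher and 23 lower, beside 8566 and 8724 of all 28109 probes. With normexp background correction as well, 22 were higher and 21 lower, beside 8618 and 8620. Kcnk3, Kcna5 (at least 15.8-fold), Kcne3 (at least 10.6-fold), Kcnh8 (at least 8.29-fold), Kcnj8 (at least 3.42-fold), Kcnmb4 (3.40-fold), Kcnk10 (3.33-fold) and Kcnq5 (at least 3.04-fold) were furthest above. Those furthest below were Kcnma1 (4.68-fold), the Kv beta subunit Kcnab2 (at least 4.58-fold), Kcnh5 (3.55-fold), Kcnq1ot1 (3.47-fold), Kcnab3 (3.02-fold, with 1 Dox(+) array missing), Kcnip4 (2.95-fold), Kcnj13 (at least 2.67-fold) and Kcnh6 (2.64-fold). Kcnab2 was tested only through βTC6 cells, so its difference is given as a description. Against E15.5 pancreas, 37 were higher and 11 lower, 68.6% called against 60.0% of all probes (33.1% higher and 26.9% lower). Kcnf1 (at least 7.39-fold), Kcnip3 (7.27-fold), Kcnk10 (6.16-fold), Kcnmb4 (5.94-fold), Kcna5 (5.23-fold), Kcnh8 (4.65-fold), Kcnh6 (4.60-fold) and Kcnn1 (4.21-fold) led the higher genes. Kcnq1 led the lower genes, ahead of Kcnk6 (6.26-fold), Kcnj8 (5.77-fold), Kcnh7 (4.57-fold), Kcne4 (2.28-fold), Kcnj13 (at least 2.00-fold), Kcnq1ot1 (1.99-fold) and Kcnk1 (1.79-fold). Kcne4 was tested only through E15.5 pancreas, so its difference is likewise a description. Kcnq1 was at background on both arrays of Dox(+) EBs, Dox(-) EBs and βTC6 cells, read 0.965 and 0.944 on islet arrays and reached 13.1 and 12.2 on E15.5 arrays, at least 44.8-fold over Dox(+) EBs (limma adjusted p = 1.80e-09). In all, 9 genes were higher in Dox(+) EBs than in each of the other groups (Kcna1, Kcna5, Kcnd3, Kcnh8, Kcnk10, Kcnmb1, Kcnmb4, Kcnn2 and Kcnq5) and 4 lower than in each (Kcnh1, Kcnh3, Kcnh7 and Kcnq1ot1). The share of all probes with either pattern was not counted, and several of these genes depended on the probe. Kcnq1ot1 was called lower with Dox on 1 of its 5 tested probes, and the other Kcnh1 probes rose. Kcnh3 and Kcnh7 changed direction with Dox on their dimmest probe. On the dimmest probe Kcnk10 changed direction against βTC6 cells, and Kcnd3 against islets, βTC6 cells and pancreas. Kcnd3 was tested only through Dox(+) EBs. The Dox calls of Kcnh1, Kcnh3 and Kcnh7 were lost without at least 1 EB array.

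**Figure D3:**
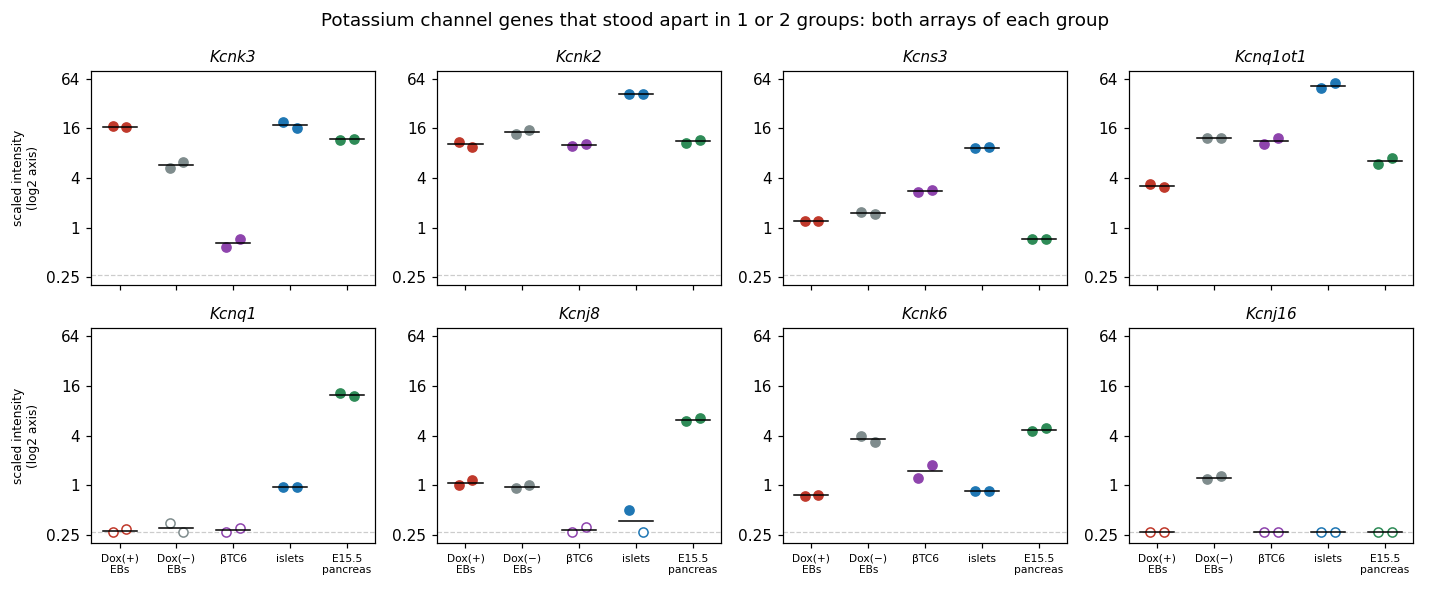
Scaled intensity (vertical axis, log2 spaced, dashed line at the floor of 0.27) of 8 genes that stood apart in 1 or 2 groups, with both arrays of each group as points, open where at background, and the group mean of log2 levels as a bar. Kcnk2, Kcns3 and Kcnq1ot1 were highest in islets, Kcnq1 and Kcnj8 in E15.5 pancreas, and Kcnk3 was lowest in βTC6 cells.

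Although 1 fit over all arrays gave both their spread, the comparison of islets with E15.5 pancreas shares no array with that of the EBs. There 38 genes were higher and 13 lower in islets, 72.9% called against 65.0% of all probes (32.5% in each direction), with a median log2 difference of 0.51 for the family and 0 for all probes. Kcns3, a silent subunit that pairs with Kv2 channels, led with 9.18 and 9.59 on islet arrays against 0.726 and 0.727 on E15.5 arrays (12.9-fold, limma adjusted p = 5.37e-10). Kcnmb2 (11.8-fold), Kcnq1ot1 (8.21-fold), Kcnma1 (8.21-fold), Kcnk12 (6.54-fold), Kcnip4 (6.05-fold), Kcnh6 (5.39-fold) and Kcnt1 (4.55-fold) followed. Kcnk2 was at 42.1 on both islet arrays, against 10.7 and 11.6 on E15.5 arrays (3.77-fold), with βTC6 cells at 9.92 and 10.4. The genes furthest below the pancreas were Kcnj8, Kcnq1 (13.2-fold), Kcne3 (at least 7.44-fold), Kcnk6 (5.52-fold), the erg-type gene Kcnh7 (3.10-fold), Kcnd2 (2.39-fold), Kcne4 (at least 2.28-fold) and Kcnmb4 (2.02-fold). As Kcne4 was tested only through the pancreas, its difference is given as a description. All 11 endocrine markers were higher in islets (sums of 1404 to 1894 against 220 to 223), whereas 6 of 7 mesenchyme and vessel wall markers and 4 of 4 liver markers (13.8 to 15.6 against 67.7 to 70.1) were lower. The part of these cells in the channel differences was not tested.

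Kcnq1 and Kcnq1ot1 lie on opposite strands of 1 imprinted locus, and the strand of the probes was not checked. The Kcnq1ot1 probe read 3.40 and 3.10 on Dox(+) arrays, 12.1 and 12.3 on Dox(-) arrays, 10.4 and 12.1 on βTC6 arrays, 49.9 and 56.2 on islet arrays and 5.87 and 7.08 on E15.5 arrays. The levels of Kcnq1 and of this Kcnq1ot1 probe thus ran in different orders over the groups. Another Kcnq1ot1 probe was lower in islets than in pancreas (4.43 and 4.46 against 11.0 and 11.1, limma adjusted p = 7.65e-04), so the probe with the highest mean stood apart from it in direction. A further probe was above background in the pancreas alone (0.524 and 0.441). It was tested only through that group, so its difference is given as a description. None of the other 4 tested Kcnq1ot1 probes was called with Dox.

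**Figure D4:**
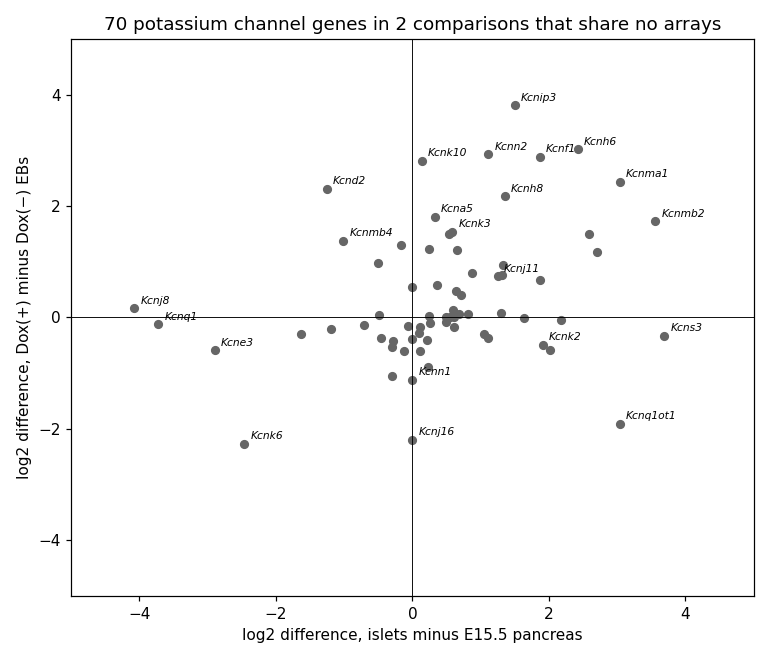
Each of the 70 tested genes by its log2 difference between islets and E15.5 pancreas (horizontal axis) and between Dox(+) and Dox(-) EBs (vertical axis), which share no arrays. Of the genes that rose with Dox, 19 were higher and 3 lower in islets, and Kcnq1ot1 and Kcns3 lie at the lower right. The matching split over all probes was not counted.

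Set side by side, 19 genes rose with Dox and were higher in islets than in E15.5 pancreas, 3 rose with Dox and were lower in islets (Kcnd2, Kcnmb4 and Kcnq5), 3 fell with Dox and were higher in islets (Kcnk2, Kcnq1ot1 and Kcns3) and 5 fell with Dox and were lower in islets (Kcne3, Kcnh3, Kcnh7, Kcnk1 and Kcnk6). The share of all probes with each of these patterns was not counted, so the counts have no background beside them. Across the 70 genes the 2 log2 differences correlated at r = 0.29 (rho = 0.35), and across all 28109 probes at r = 0.25 (rho = 0.23). Without 1 array the islet call was lost in 3 of 4 fits for Kcnq5 (adjusted p = 0.0527 to 0.335), in 3 for Kcnh4 (0.0585 to 0.0951), in all 4 for Kcna5 (0.0943 to 0.162), and in 2 each for Kcnip2 (0.20 and 0.206) and Kcnk1 (0.27 and 0.276). Genes are not independent replicates, and the probes share base composition and array type.

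In βTC6 cells against islets, 17 genes were higher and 22 lower, 55.7% called against 66.1% of all probes (39.1% higher and 27.0% lower). After normexp background correction with quantile normalization the split became 14 higher and 28 lower, and this scaling moved the median of all probes by -0.11. Besides Kcnk3, the genes furthest below islets were Kcnq1ot1 (4.71-fold), Kcnmb2 (4.62-fold), Kcnh8 (at least 4.54-fold), Kcnk2 (4.16-fold), Kcna5 (at least 3.81-fold), Kcns3 (3.39-fold) and Kcnq1 (at least 3.04-fold). Those furthest above were Kcnd2 (7.00-fold), Kcnab2 (at least 4.58-fold), Kcnmb4 (3.53-fold), Kcnf1 (3.50-fold), Kcnh5 (2.41-fold), Kcnh6 (2.25-fold), Kcnip3 (2.02-fold) and Kcnk6 (1.73-fold). Kcnab2 was at background on both islet arrays and read 1.15 and 1.33 on βTC6 arrays. It was tested only through βTC6 cells, so its difference is given as a description. Acinar markers, at 1.26 to 1.42 in βTC6 cells against 755 to 1191 in islets, differed between the groups as well, and their part was not tested. The islets exceeded Dox(+) EBs, E15.5 pancreas and βTC6 cells alike for 15 genes, among them Kcnma1, Kcnmb2, Kcnk2, Kcns3, Kcnt1 and Kcnj11. The Kcnj11 call against βTC6 cells was lost without βTC6 replicate 1 or islet replicate 2 (log2 differences of βTC6 minus islets -0.55 and -0.56). Kcnk13, also among the 15, was tested only through islets, so its differences are given as a description. The share of all probes with this pattern was not counted.

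Lists of channels by tissue were read for context. Of the beta cell list, 11 of 13 genes were tested, and with Dox 6 rose (Kcnj11, Kcnk3, Kcnh2, Kcnh6, Kcnma1 and Kcnd3) and 1 fell (Kcnn4), with a median log2 difference of 0.73 beside -0.03 over all probes. Of all tested probes, 20.7% rose and 22.5% fell with Dox, the background for each list here. Set against islets, 3 genes of the beta cell list were higher and 6 were lower in Dox(+) EBs, beside 36.4% and 31.6% of all probes. Of the neuronal list, 12 of 16 were tested, with 6 rises (Kcna1, Kcnd2, Kcnj9, Kcnip1, Kcnip4 and Kcnmb4) and 1 fall (Kcnh7). Of the cardiac and muscle list, 10 of 11 were tested, with 6 rises (Kcnj12, Kcnh2, Kcnd3, Kcnip2, Kcna5 and Kcnk3) and 1 fall (Kcnj2), and of the epithelial and vessel wall list, 7 of 11, with 1 rise (Kcnmb1) and 5 falls (Kcnj16, Kcne3, Kcnk1, Kcnn4 and Kcnk2). Median log2 differences with Dox were 0.29 for the neuronal list, 0.68 for the cardiac and muscle list and -0.54 for the epithelial and vessel wall list. The lists share genes, so their counts and medians are not separate evidence. The counts also include Kcnd3 and Kcnj9, tested only through Dox(+) EBs, and Kcnj16, tested only through Dox(-) EBs. Among 9 partners and relatives with a probe, Hcn3, a pacemaker channel of the same superfamily, rose to 5.01 and 4.35 on Dox(+) arrays, against 1.31 and 0.939 on Dox(-) arrays (limma adjusted p = 2.27e-06). Abcc8 was called lower, near the threshold.

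Of the 80 genes, 21 had more than 1 probe and 15 had a further probe that was tested. Probes of 1 gene were called in opposite directions for 1 gene with Dox (Kcnh1), for 2 against islets (Kcna2 and Kcnc1), for 2 against βTC6 cells (Kcnh3 and Kcnk10), for 1 against E15.5 pancreas (Kcnq5), and for 4 each between islets and pancreas (Kcna2, Kcnc1, Kcnh3 and Kcnq1ot1) and between βTC6 cells and islets (Kcna2, Kcnc1, Kcnh3 and Kcnj6). Kcnc1, a fast Kv3 channel of neurons, was probe dependent with Dox as well. Its probe with the highest mean was not called with Dox, at 1.35 and 1.66 against 1.90 and 1.21, whereas another read 6.01 and 5.12 on Dox(+) arrays against 0.870 and 0.881 on Dox(-) arrays (6.34-fold, limma adjusted p = 8.16e-07), and read 0.312 and 0.27 on islet arrays.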

How the data were processed

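RNA of 10 samples was hybridised to 1-colour CodeLink Mouse Whole Genome arrays. The authors deposited scaled intensities made with CodeLink Expression Analysis software, in which the local background was subtracted from each spot and the result divided by the array's median discovery probe. Masked, contaminated and irregular spots were set to missing here, and saturated spots were kept. The authors' removal of invalid probes and their later filtering were not repeated. Values were floored at 0.27 and log2 transformed, and 28109 probes above background on both arrays of a group were fitted with limma 3.58.1 (R 4.3.3; 1 mean per group over all 10 arrays, eBayes with trend and robust set), with Benjamini-Hochberg adjustment over these probes. Where a group stood at background on both arrays, a fold is a lower bound against the higher of the probe's own value and the dimmest probe above background on that array. Of the 34967 discovery probes, 21615 were annotated with 1 symbol, 681 with several and 12671 with none. Kcn probes naming several genes (4) were not used. The number of arrays, 2 per group, limits the precision. The family, the gene lists and the named genes (Kcnj11 and the list members, the 8 largest rises and falls past the threshold without overlapping arrays in each comparison, and the gene called most often in each subfamily) were chosen with earlier results of these data known. The fit was tested on simulated data. Alternatives were quantile normalization, normexp background correction, a floor of 1, a stricter background filter, the dimmest probe of each gene, a 2-fold minimum, a replicate block, and leaving out each array. The replicate numbers did not pair the arrays (correlations of deviations from the group means -0.081 to 0.067). Upstream sequences came from a RefSeq promoter table. Matplotlib 3.10.9 drew the plots, and tables used pandas 2.3.3 and NumPy 2.4.6 under Python 3.11.15.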

Additional observations from a re-analysis of the deposited data

How the results depend on the processing

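No called difference changed direction when 1 array was left out. Where the arrays of the 2 groups did not overlap, this outcome was fixed in advance. Some of the Dox calls were lost in each such fit. Leaving out 1 array in turn gave 22 to 25 genes higher and 8 to 15 lower with Dox, 19 to 22 and 20 to 24 against islets, 17 to 21 and 17 to 24 against βTC6 cells, 33 to 34 and 11 to 12 against E15.5 pancreas, 31 to 34 and 11 to 13 for islets against pancreas, and 13 to 19 and 21 to 24 for βTC6 cells against islets.

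With a floor of 1, the number higher of 70 genes was 15 with Dox, 14 against islets, 22 against pancreas and 11 for βTC6 cells against islets, and 8 were lower for islets against pancreas. Of all 28109 probes, 4001, 7498, 6621 and 8486 were then higher in the same order, and 6790 were lower. With only genes above background on all arrays, 39 genes and 18034 of all probes were tested. The counts were then 10 higher and 12 lower with Dox (3965 and 4785 of all probes). They were 9 higher and 18 lower against islets (7227 and 5828), and 9 and 15 against βTC6 cells (4571 and 7969). Against pancreas they were 20 and 7 (6783 and 4940). For islets against pancreas they were 22 and 6 (6408 and 6241), and for βTC6 cells against islets 11 and 13 (8470 and 4767). A 2-fold minimum left 5 lower with Dox, 12 higher and 15 lower against islets, 10 lower against βTC6 cells, 17 higher and 5 lower against pancreas, 22 and 8 for islets against pancreas, and 7 and 10 for βTC6 cells against islets. The share of all probes past this minimum was not counted.

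With the dimmest probe of each gene, 6 were lower against pancreas, and log2 differences turned for Kcnh3 (0.30), Kcnh7 (0.013) and Kcnh1 (0.79) with Dox, for Kcnd3 (-0.20) and Kcnip4 (0.52) against islets, for Kcnd3 (-0.36), Kcnh3 (0.77) and Kcnk10 (-2.52) against βTC6 cells, for Kcnd3 (-0.40), Kcnh3 (0.18), Kcnh7 (0.013), Kcnh1 (0.29) and Kcnj6 (-0.023) against pancreas, for Kcnh3 (0.20) and Kcnh7 (0.11) for islets against pancreas, and for Kcnh3 (-0.80) and Kcnj6 (-0.24) for βTC6 cells against islets. In that last comparison Kcnn3 and Kcnj6 also turned under quantile normalization (-0.14 and -0.39) and with normexp (-0.13 and -0.38), and the split of 17 higher and 22 lower became 14 and 27 under quantile normalization. The cause was not tested.

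The replicate numbers did not pair the arrays. With the replicate block, 27 were higher and 14 lower with Dox, and no count moved by more than 1.5 times.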
